A study of Drosophila melanogaster with 10 samples.

Results

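The maltases of the fruit fly Drosophila melanogaster are the 10 genes Mal-A1 to Mal-A8 and Mal-B1 and Mal-B2, and their probe sets were found by gene symbol in an array annotation. Each of the 10 genes had 1 probe set that names it alone, and all 10 were bright enough to be compared, among 10960 features in all. Total RNA was taken from whole adult females of 10 lines, 5 from selection for heat resistance and 5 not selected (controls), and each line was measured on 1 array. The series design describes the lines as independent, and the p-values therefore reflect the variation between lines. Labels used here say nothing of age, diet, mating status or treatment of the flies.

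Maltases are alpha-glucosidases that cut glucose from the end of maltose, sucrose and other short sugars, and so finish the digestion of starch that amylases begin. In flies many of them are made by the midgut, where digestive carbohydrase genes are known to respond to the sugar content of the food. The genes lie in 2 clusters of neighbours, with Mal-A1 to Mal-A8 on chromosome arm 2R and Mal-B1 and Mal-B2 on arm 2L. Mal-A1, Mal-A2 and Mal-A3 were first described as the larval visceral protein genes LvpH, LvpD and LvpL. In the RefSeq table (Release 6 plus ISO1 MT) no other gene lies between the members of either cluster in gene order. Mal-B2 and Mal-A5 have 3 annotated transcripts each, Mal-A6 and Mal-A7 have 2, and the other members have 1. The arrays measured 1 value per gene and did not separate these transcripts.

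The array medians lay between 41.9 and 48.3 in intensity, and any pair of arrays correlated across probe sets with an r between 0.987 and 0.998. All 3 yolk protein genes, which are expressed in females, had mean log2 levels of 13.9 or above. Of 7 male gland and testis genes with a probe set, 3 passed the filter and the highest mean was 4.26. Signal at the 3' end of the fly control transcripts exceeded that at the 5' end by 2.27 (log2) in control line 1 and 2.76 in selected line 1, against at most 1.93 in the other lines, and a high value can mean degraded RNA. In whole flies, a change in the amount of gut cannot be told apart from a change in RNA per gut cell.

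The comparison asks whether maltase transcripts differ between lines selected for heat resistance and control lines. All 10 maltases averaged higher in the selected lines, where 53.7% of all features did. The median difference, selected minus control on the scale of log2(intensity + 1), was 0.31 over the 8 Mal-A genes and 0.73 over the Mal-B genes, against 0.0075 over all features. Mal-A8 and Mal-B2 lay higher in every selected line than in any control line, a pattern seen in 0.803% of features. Those genes and Mal-A1 had an unadjusted p under 0.05 from limma, so 3 of 10 maltases did, all higher. Of all features 9.52% did in either direction and 5.55% did in the higher direction. The maltases were chosen with results of these data known and vary together on the same arrays. These shares therefore do not test them as a set. After Benjamini-Hochberg adjustment over all features, limma called 0 maltases and 0 features (0%) at a threshold of 0.05, so none of the 10 is called changed.

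**Figure D1:**
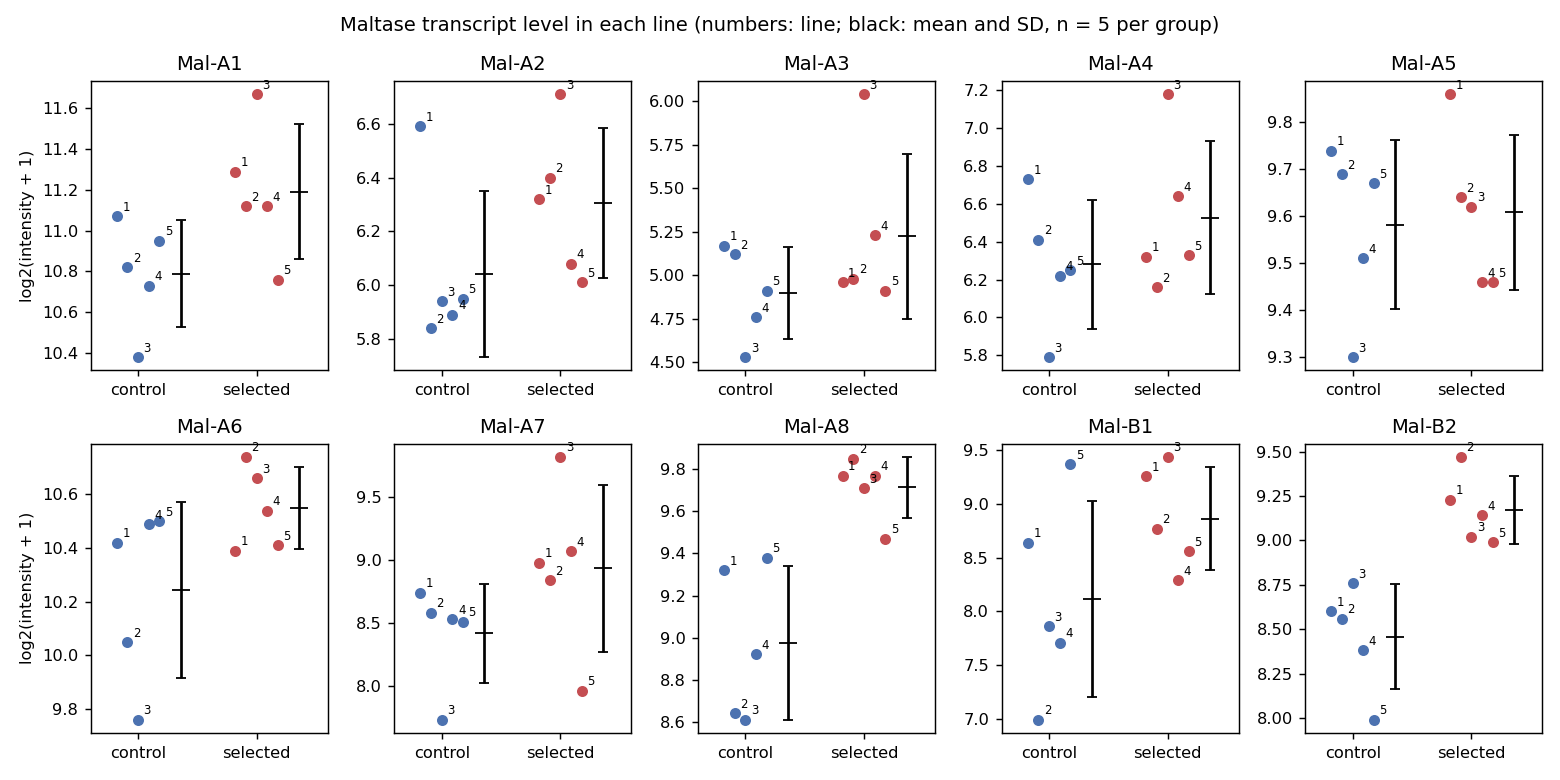
Level of each maltase as log2(intensity + 1) in 5 control lines (blue) and 5 heat-selected lines (red), with the line number beside each point and the mean and SD in black. The groups are separate for Mal-A8 and Mal-B2 and overlap for the other 8 genes, and selected line 3 is the highest of all lines for Mal-A1, Mal-A2, Mal-A3, Mal-A4, Mal-A7 and Mal-B1.

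Mal-B2 showed separate groups, although its spread among lines was wider than in most features. Its log2 level was 8.60, 8.56, 8.76, 8.38 and 7.99 in control lines 1 to 5 and 9.23, 9.47, 9.02, 9.14 and 8.99 in selected lines 1 to 5. The lowest selected line, line 5, lay above the highest control line, line 3. Control intensities spanned 252.9 (line 5) to 433.5 (line 3), and selected intensities 507.7 (line 5) to 710.5 (line 2). The group means were 8.46 ± 0.30 and 9.17 ± 0.19 (SD, n = 5 each). The difference of 0.71 ± 0.14 (SE) corresponds to a fold of 1.64, with an adjusted p of 0.234 from limma (unadjusted p = 3.68e-04). An exact two-sided permutation test over all labelings of the lines gave p = 0.00794, which is the smallest that 5 lines against 5 can give. Any gene with separate groups gets this value, so it restates the separation. With any single line left out the difference stayed between 0.60 and 0.79.

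Mal-B1, the neighbour of Mal-B2, had a mean difference of like size and a far wider spread. Its level was 8.64, 6.99, 7.86, 7.71 and 9.37 in control lines 1 to 5 and 9.26, 8.77, 9.44, 8.29 and 8.56 in selected lines 1 to 5. The groups overlapped, because control line 5 lay above 4 of the selected lines and control line 1 above 2 of them. The control lines spanned 2.38 on the log2 scale, from an intensity of 126.5 in line 2 to 661.2 in line 5. The SD among control lines was 0.91, above that of 99.7% of all features, and among selected lines it was 0.48, above 96.4%. For Mal-B2 the same percentiles were 86.5 and 68.8. The difference of Mal-B1 was 0.75 ± 0.39 (SE, unadjusted p = 0.0810 and adjusted p = 0.620 from limma, exact permutation p = 0.159). It was 0.47 without control line 2 and 1.06 without control line 5.

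Within the Mal-A cluster the largest difference was at Mal-A8, the last gene in order. Its level was 9.32, 8.64, 8.61, 8.92 and 9.38 in control lines 1 to 5 and 9.77, 9.85, 9.71, 9.77 and 9.47 in selected lines 1 to 5. The groups did not overlap, although control lines 1 and 5 came close to selected line 5. In intensity the control lines ran from 389.6 to 663.6 and the selected lines from 710.5 to 922.2. The selected lines lay close together, with a mean of 9.72 ± 0.14, and the control lines were spread more widely, at 8.97 ± 0.36 (SD, n = 5 each). The difference was 0.74 ± 0.16 (SE), a fold of 1.67, with an adjusted p of 0.234 from limma (unadjusted p = 5.35e-04, exact permutation p = 0.00794). With single lines left out it stayed between 0.65 and 0.84.

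Mal-A1, with intensities of 1329 to 3260, and Mal-A7 varied together across the lines. Mal-A1 had levels of 11.07, 10.82, 10.38, 10.73 and 10.95 in control lines 1 to 5 and 11.29, 11.12, 11.67, 11.12 and 10.76 in selected lines 1 to 5. Selected lines 1 to 4 lay above every control line, while selected line 5 fell among them. Its difference was 0.40 ± 0.17 (SE, unadjusted p = 0.0341 and adjusted p = 0.486 from limma, exact permutation p = 0.0635). With single lines left out its unadjusted p ran from 0.00786 to 0.0878. Mal-A7 had levels of 8.74, 8.58, 7.73, 8.53 and 8.51 in control lines 1 to 5 and 8.98, 8.84, 9.82, 9.07 and 7.96 in selected lines 1 to 5. Here too selected lines 1 to 4 were above all control lines, and selected line 5 was below all control lines but line 3. The difference was 0.52 ± 0.30 (SE, unadjusted p = 0.106), and it was 0.30 without selected line 3. Without selected line 5 it was 0.76 (unadjusted p = 0.00843, adjusted p = 0.328 from limma). For both genes that was the lowest selected line and the only one not above every control line. Leaving it out therefore had to raise the difference and make the groups of Mal-A1 and Mal-A7 separate.

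Mal-A2, Mal-A3 and Mal-A4 were the dimmest members, with intensities between 22.07 and 143.6. Their levels still lay above 3.64, the highest log2 value of 23 control probe sets of other organisms. Mal-A3 had levels of 5.17, 5.12, 4.53, 4.76 and 4.91 in control lines 1 to 5 and 4.96, 4.98, 6.04, 5.23 and 4.91 in selected lines 1 to 5. Selected line 3 stood apart, and the other selected lines lay inside or just above the control range. The differences were 0.26 ± 0.16 for Mal-A2, 0.33 ± 0.21 for Mal-A3 and 0.24 ± 0.20 for Mal-A4 (SE, unadjusted p of 0.140, 0.148 and 0.260 from limma). Single lines moved them by over 1.5 times: Mal-A2 was 0.40 without control line 1 (unadjusted p = 0.0109 from limma) and 0.16 without selected line 3, and Mal-A3 and Mal-A4 were 0.12 and 0.080 without selected line 3. Mal-A4 was 0.12 without control line 3. Without the pseudocount the differences of Mal-A2, Mal-A3 and Mal-A4 were 0.26, 0.33 and 0.25.

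Mal-A5 had nearly equal means in the groups, and Mal-A6 was higher by a margin that did not pass. Mal-A5 had levels of 9.74, 9.69, 9.30, 9.51 and 9.67 in control lines 1 to 5 and 9.86, 9.64, 9.62, 9.46 and 9.46 in selected lines 1 to 5. Line 1 was the highest of its group in both, and the groups overlapped nearly throughout. The difference was 0.026 ± 0.10 (SE, unadjusted p = 0.811 from limma). Mal-A6 had levels of 10.42, 10.05, 9.76, 10.49 and 10.50 in control lines 1 to 5 and 10.39, 10.74, 10.66, 10.54 and 10.41 in selected lines 1 to 5. Its groups overlapped because selected lines 1 and 5 fell below control lines 1, 4 and 5. The difference was 0.30 ± 0.15 (SE, unadjusted p = 0.0621 and adjusted p = 0.559 from limma). It was 0.18 without control line 3 (unadjusted p = 0.150) and 0.37 without control line 5 (unadjusted p = 0.0345).

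**Figure D2:**
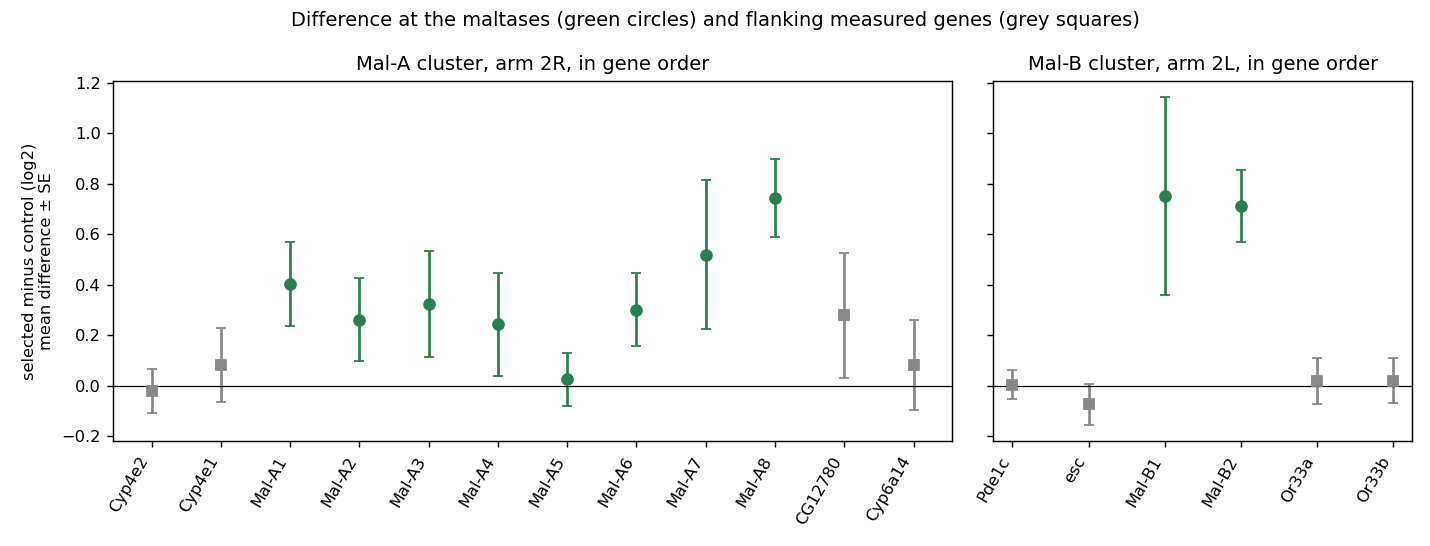
Difference of the means, selected minus control on the log2 scale, with its SE, for the maltases (green circles) in gene order and for the 2 nearest measured genes on each side of each cluster (grey squares). All maltases lie above 0, from 0.026 at Mal-A5 to 0.75 at Mal-B1, and the flanking genes lie between -0.073 and 0.28.

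The nearest measured genes on each side of the clusters were examined for comparison. Before Mal-A1 lie the cytochrome P450 genes Cyp4e1, whose annotated span overlaps that of Mal-A1, and Cyp4e2. They differed by 0.082 ± 0.15 and -0.020 ± 0.087 (SE, unadjusted p of 0.581 and 0.819 from limma). Past Mal-A8 the nearest measured genes were CG12780, at 0.28 ± 0.25, and the cytochrome P450 gene Cyp6a14, at 0.083 ± 0.18. The gene mtt overlaps Mal-A8, and its probe set was too dim to be compared. Before Mal-B1 the nearest measured gene in order was the Polycomb group gene esc, 15 genes away. It differed by -0.073 ± 0.082 (unadjusted p = 0.390 from limma). The phosphodiesterase gene Pde1c, whose annotated span covers the Mal-B genes, differed by 0.0051 ± 0.057, and the odorant receptor genes Or33a and Or33b by 0.019 ± 0.090 and 0.021 ± 0.089. The group means of these 3 genes lay between 3.37 and 3.59. Probe sets of other organisms had means up to 3.43 and single values up to 3.64. Or33a and Or33b lay within those means and Pde1c just above them, so all 3 genes carry little information.

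The clusters were compared line by line through the mean of their members, with each gene centred on its mean over the 10 lines. The Mal-A mean was 0.15, -0.19, -0.58, -0.20 and -0.066 in control lines 1 to 5 and 0.16, 0.14, 0.60, 0.16 and -0.17 in selected lines 1 to 5. In 3 selected lines it exceeded every control line, and line 3 held both extremes, the lowest among controls and the highest among selected lines. The Mal-B mean was -0.033, -0.88, -0.34, -0.61 and 0.028 in control lines 1 to 5 and 0.59, 0.47, 0.58, 0.064 and 0.13 in selected lines 1 to 5. All 5 selected lines exceeded every control line in this mean, selected line 4 only just. Mal-B minus Mal-A was -0.19 ± 0.37 over the controls and 0.19 ± 0.23 over the selected lines (SD, n = 5 each). This contrast overlapped between the groups, with 3 selected lines above every control line, and its difference of 0.38 was about as large as the SD among control lines. No p is given for these means, since the members were chosen with results of these data known.

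**Figure D3:**
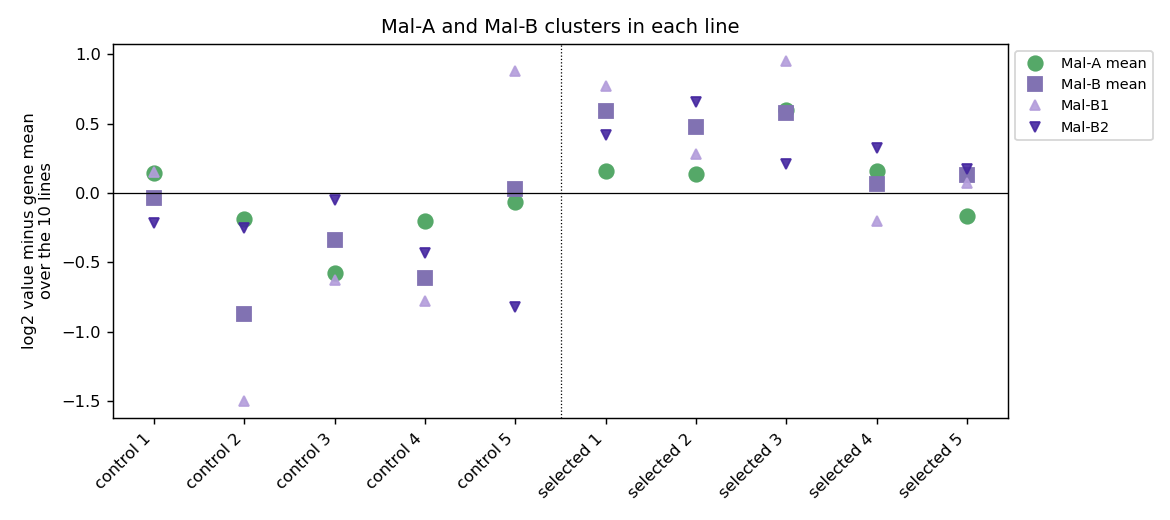
Mean of the Mal-A genes (circles) and of the Mal-B genes (squares) in each line, with Mal-B1 and Mal-B2 as triangles, each gene as its log2 value minus its mean over the 10 lines. Mal-A runs from -0.58 in control line 3 to 0.60 in selected line 3, and Mal-B1 and Mal-B2 lie far apart in control lines 2 and 5.

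The size of the Mal-A difference depended on line 3. Without line 3 of both groups, a choice made after seeing the values, the median Mal-A difference was 0.13 in place of 0.31. Mal-A1 then differed by 0.18, Mal-A7 by 0.13, Mal-A3 by 0.030 and Mal-A4 by -0.043. Mal-A8 differed by 0.65 and Mal-B2 by 0.83 in the same fit, and the Mal-B median was 0.69. The groups of Mal-A8 and Mal-B2 were separate over all lines already, and leaving lines out cannot make separate groups overlap. Without line 1 of both groups, the lines with the largest 3' excess, Mal-A8 differed by 0.82 and Mal-B2 by 0.74 on the log2 scale. In that fit 5 members had an unadjusted p under 0.05 in place of 3. Over all 10960 features the count at that threshold rose as well, to 1517 from 1043.

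Members of the Mal-A cluster tended to vary together among lines of the same group. After the mean of each group was taken away, Pearson's r over the 10 lines had a median of 0.57 over the 28 Mal-A pairs (0.23 to 0.95), of 0.044 over all pairs of features and of 0.21 over the 16 pairs of a Mal-A with a Mal-B gene (-0.45 to 0.76). All values come from the same 10 arrays, so differences between arrays enter every pair. Mal-B2 had an r below 0 with 8 of the other 9 maltases, at most 0.18 with Mal-A2, and -0.48 with its neighbour Mal-B1. Mal-B1 was nearest to Mal-A8, at 0.76.

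**Figure D4:**
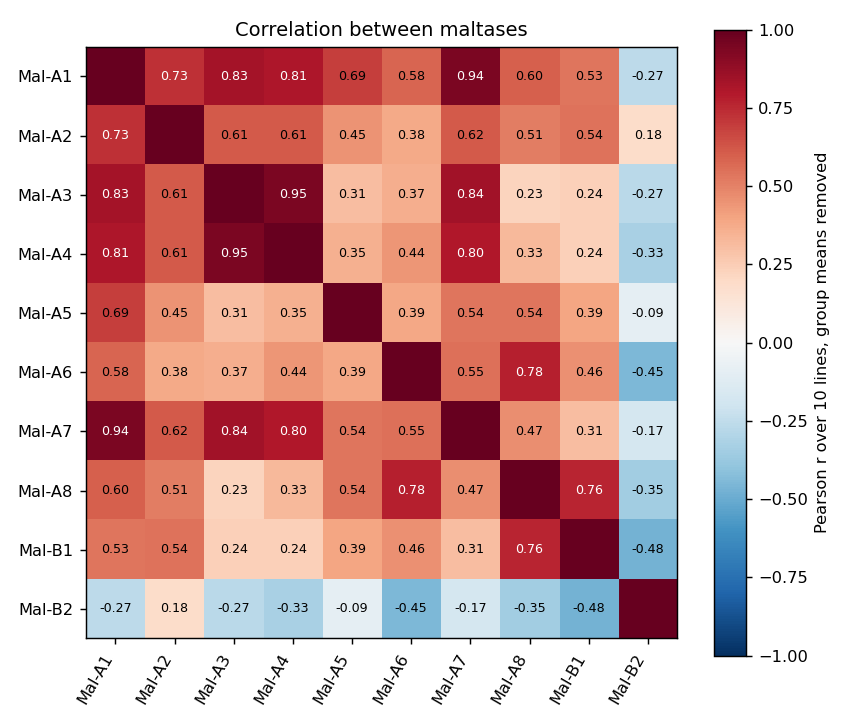
Pearson's r between each pair of maltases over 10 lines, after the mean of each group was subtracted, from -1 (blue) to 1 (red). With all 10 lines included, the Mal-A genes form a positive block of 0.23 to 0.95 and Mal-B1 is positive with all of them. The row of Mal-B2 is mostly below 0.

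Pairs were tested over all 10 lines with 100000 permutations, two-sided, and adjusted by Benjamini-Hochberg over the 45 pairs. Group means were kept in these tests, so the difference between the groups enters r, rho and their p-values. For the neighbours Mal-A3 and Mal-A4, r was 0.95 (permutation p = 9.00e-05, adjusted p = 0.00225) and Spearman's rho 0.85 (permutation p = 0.00325, adjusted p = 0.0582). Without control line 3 and selected line 3, the lines farthest from the median of Mal-A3, r was 0.84. For Mal-A1 and Mal-A7, r was 0.95 (permutation p = 1.00e-04, adjusted p = 0.00225) and rho 0.90 (permutation p = 7.70e-04, adjusted p = 0.0347), and r was 0.81 without the same lines. Among the 28 Mal-A pairs 9 had an adjusted p under 0.05 for r, and 1 of them, Mal-A1 with Mal-A7, did so for rho. These 9 pairs had an r of at least 0.77, a level reached by 32.1% of the Mal-A pairs and 7.0% of all pairs of features. When the 2 lines farthest from the median were left out, r of the 9 pairs ran from 0.24 (Mal-A1 with Mal-A4) to 0.84. Of these, 5 fell under 0.6, so those 5 pairs rest on the left-out lines, mostly line 3 of each group. Over all 28 Mal-A pairs, r without 2 lines ran from -0.26 (Mal-A4 with Mal-A6) to 0.84, and several pairs fell below 0. For Mal-B1 with a Mal-A gene it ran from -0.15 (Mal-A3) to 0.63 (Mal-A2). Among the 16 mixed pairs only Mal-A8 with Mal-B1 had an adjusted p under 0.05 for r over all 10 lines (r = 0.78, permutation p = 0.00836, adjusted p = 0.0376, rho = 0.62 with adjusted p = 0.168). That r fell to 0.55 without control lines 2 and 3. For Mal-B1 and Mal-B2, r was 0.20 (permutation p = 0.572, adjusted p = 0.599) and rho 0.32 (permutation p = 0.367, adjusted p = 0.486), and r was -0.16 without control lines 2 and 4.

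The genes whose pattern over the 10 lines, group means taken away, was most like that of each cluster mean are given as a description. For Mal-A these were strat (r = 0.91), which encodes a partner of Rab proteins, CG4872 (0.90), the chemosensory gene CheA7a (0.90), dnd (0.89) and the inositol phosphate phosphatase gene Mipp1 (0.89). Between the groups strat differed by -0.073 and CG4872 by 0.00037, while CheA7a differed by 0.49 and Mipp1 by 0.42. For Mal-B, a mean whose variation follows Mal-B1 (r = 0.94) and not Mal-B2 (-0.15), they were Nacalpha (0.95), a subunit of a complex that binds nascent polypeptides, the projectin gene bt of muscle (0.94), CG46339 (0.93), CG12581 (0.93) and RIC-3 (0.92). Of these bt differed by 0.81 ± 0.25 and RIC-3 by 0.76 ± 0.30 (SE).

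Other enzymes that act on starch, sugars and related glycosides had group differences on both sides of 0. The list is broader than the steps at which maltases act, since 6 of its 11 measured genes are LMan genes of the lysosomal mannosidase family. Of the 11 genes, 6 had a higher and 5 a lower mean, and the median difference was 0.0023. An unadjusted p under 0.05 was found for 0 of the 11, where 9.52% of all features had one. Amy-d, an alpha-amylase gene with a near-identical copy, Amy-p, whose transcripts its probe set may share, differed by 0.24 ± 0.18. The galactosidase gene Gal differed by 0.34 ± 0.37 and LManV by -0.39 ± 0.45 (SE). Of 22 midgut proteases, 8 had a higher and 14 a lower mean, with a median of -0.094. An unadjusted p under 0.05 was found for 1 of the higher and 3 of the lower ones. In that list the Jonah protease genes Jon25Bii and Jon25Bi were lower by the mean, at -1.27 ± 0.26 and -0.60 ± 0.18, and Jon65Aii was higher, at 0.76 ± 0.28 (unadjusted p of 4.19e-04, 0.00647 and 0.0184 from limma). Jon25Bii lay lower in every selected line than in any control line (adjusted p = 0.234 from limma). The share of all features separate in that direction was not counted.

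**Figure D5:**
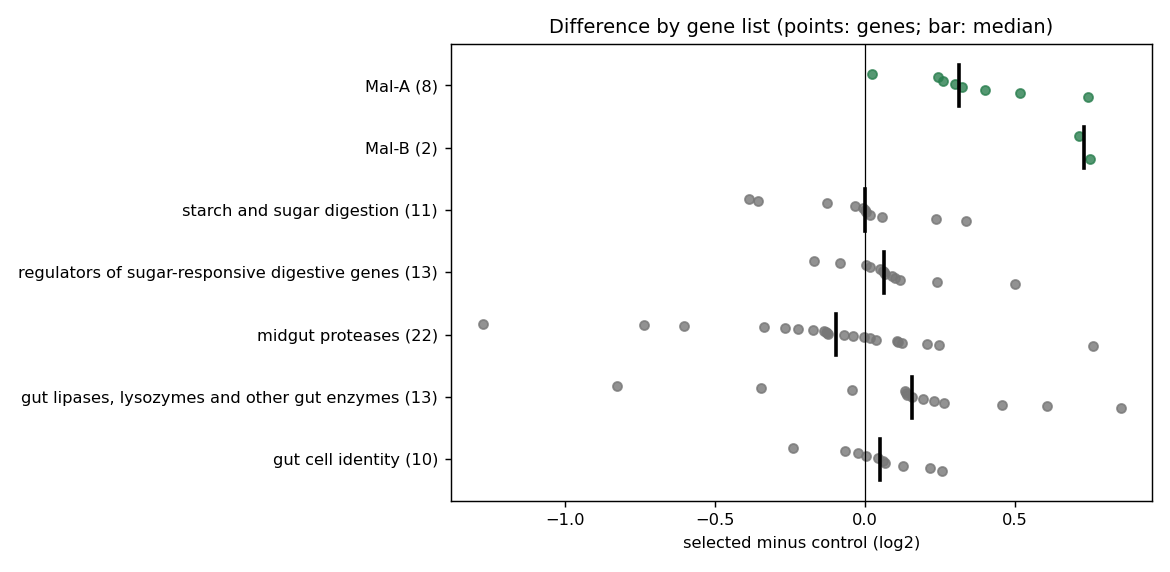
Difference of the means, selected minus control on the log2 scale, of each measured gene (points) with the median of each list (bar), and the number of genes in brackets. The medians are 0.31 for Mal-A, 0.73 for Mal-B, 0.0023 for the starch and sugar list and -0.094 for midgut proteases.

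Other gut enzymes had a median of 0.16 over 13 genes, 10 of them with a higher mean, where 53.7% of all features had one. An unadjusted p under 0.05 was found for 2 of the higher and 1 of the lower genes, where 9.52% of all features had one. The lipase gene mag differed by 0.85 ± 0.37, and the lysozyme genes LysS and LysX by 0.26 ± 0.10 and -0.83 ± 0.34 (SE, unadjusted p of 0.0399, 0.0257 and 0.0342 from limma). In the list of gut cell identity genes, 7 of 10 had a higher mean with a median of 0.052. Against the same 9.52%, 0 of the 10 had an unadjusted p under 0.05. Those with the smallest p were the homeobox gene cad (-0.24 ± 0.12), CCHa2 (0.22 ± 0.18) and Dh31 (0.26 ± 0.22), the last pair encoding peptide hormones. The mean centred level of the midgut proteases was -0.57 in selected line 3, its lowest value, where the Mal-A mean was at its highest, and 0.61 in control line 1, its highest.

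Regulators of sugar-responsive genes were listed as well, among them receptors and transcription factors of the Activin, insulin and Mondo pathways. Of 13 measured, 11 had a higher mean, where 53.7% of all features did, and the median was 0.064. Where 9.52% of all features had an unadjusted p under 0.05, 1 of the 13 did. This was sug (sugarbabe), a transcription factor gene induced by sugar feeding, whose mean was 4.67 ± 0.39 for control and 5.17 ± 0.14 for selected lines (SD, n = 5 each). It differed by 0.50 ± 0.16 (SE, unadjusted p = 0.0106 and adjusted p = 0.352 from limma). The Activin receptor gene babo differed by -0.17 ± 0.084 and the adipokinetic hormone receptor gene AkhR by 0.24 ± 0.14. Of the 69 list entries with a measured gene, counting a gene once per list, 0 passed the adjusted threshold.

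Markers of other tissues also differed in mean between the groups on the same arrays. All 7 measured muscle markers averaged higher in the selected lines, with a median difference of 0.91 and a centred mean of -1.84 to 0.10 in control lines and -1.20 to 1.24 in selected lines. All 8 follicle cell markers of the ovary had a lower mean, with a median difference of -0.54 and a centred mean of 0.073 to 0.48 in control lines and -0.99 to 0.015 in selected lines. All 3 yolk protein genes had a lower mean too, with a median difference of -0.28. Of 5 fat body markers 1 had a higher mean, and the median difference was only -0.057. Their centred mean was 0.090 to 0.56 in control lines and -0.82 to 0.017 in selected lines. The part of these shifts in the maltase values was not tested.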

How the data were processed

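The authors deposited 1 linear intensity per probe set and array. Per the submitters' processing notes it was made with GCRMA, which corrects background from probe sequence and normalizes across arrays, its version not given in the sources used here. The linear scale follows from the range of the values. Groups and line numbers come from the sample titles.

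Of 14010 probe sets, a platform annotation gave 12444 a single gene, 327 several and 1239 none. Values were analysed as log2(intensity + 1), so fold changes of dim genes are understated. Features were kept when above 3 on at least 5 arrays, 44 control probe sets were left out, and the brightest probe set stood for a gene, leaving 10960 features. A limma 3.58.1 fit (R 4.3.3, lmFit and eBayes without trend or robust weights) compared the groups, with p-values adjusted over every feature by Benjamini-Hochberg and a threshold of 0.05. The fit was tested on simulated data. Exact permutation tests used all labelings of the lines.

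All members are named. Other genes were named as the nearest measured neighbours, the 5 most like each cluster mean, and the 3 of each list with the smallest p. Members and lists were chosen with earlier results of these data known. Marker lists and gene lists came from textbook knowledge. The number of arrays limits the precision. Probe sequences were not used here, so hybridisation of a probe set to transcripts of a related maltase was not examined. Alternatives were the pseudocount, the filter, the scaling, the variance model, probe set averaging, a line-number block and lines left out.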

Additional observations from a re-analysis of the deposited data

Results flagged for a closer look

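The 10 maltases in control and in selected lines gave 20 groups of 5 lines. In these, 3 single lines lay so far from the nearest other line that the gap exceeded 0.710 of the group's range. Chance gives about 1 in 20 for independent groups of normal values. These genes vary together on the same 10 arrays, so that rate is not a measure here. Mal-A2 was at 6.59 in control line 1, with a gap of 0.850 of the range. Mal-A3 was at 6.04 in selected line 3, with a gap of 0.714. Mal-A7 was at 7.73 in control line 3, with a gap of 0.768. Control line 1 had a 3' excess of 2.27, and the line 3 arrays had 1.83 (control) and 1.68 (selected), inside the range of the other lines. Whether array quality plays a part was not tested.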

How the results depend on the processing

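The results were recomputed under 21 alternatives. The medians of both clusters, Mal-B minus Mal-A and the differences of the members kept their direction in all of them, with the exceptions of Mal-A4 and Mal-A5. Mal-A4 was -0.043 without line 3 of both groups, and Mal-A5 was -0.047 in that fit and ran from -0.045 to 0.066 with single lines left out. With single lines left out the Mal-A median ran from 0.22 to 0.40, the Mal-B median from 0.60 to 0.83 and Mal-B minus Mal-A from 0.25 to 0.49. The count of members with separate groups ran from 2 to 4, the last without selected line 5. It could not fall when lines were left out. The share of all features with separate groups was not counted with lines left out, so the count of 4 cannot be judged against it. The count of members at an unadjusted p under 0.05 ran from 2 to 5. Over all features that count ran from 534 without line 3 of both groups to 1517 without line 1 of both. The count of features called at the adjusted threshold ran from 0 to 3. That count was 3 when control line 5 was left out and 1 when selected line 2 was, and none of the called features was a maltase. Without line 1 of both groups 5 members had an unadjusted p under 0.05, as did 1517 of all features in place of 1043. The adjusted p over the alternatives ran from 0.0741 to 0.916 for Mal-A8 and from 0.0914 to 0.892 for Mal-B2. The stricter filter left out Mal-A3. With the line number as a replicate block, 2 features were called, neither a maltase. Again 3 members had an unadjusted p under 0.05, where 1467 of all features did. Mal-A1 (0.0544) was no longer among these members and Mal-B1 (0.0498) was. Deviations of lines of the same number correlated at 0.027 to 0.55, all above 0, and 3 control and 2 selected lines correlated best with their own number. This hints at a pairing, but the labels name none and 1 of the 5 values was near 0, so the lines were not treated as pairs. Counts of separate groups and fits without line 3 were chosen after seeing the data. The cause of these changes was not tested. In the fits with lines left out, fewer lines were compared.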
